A study of Mus musculus with 6 samples.

Results

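The insulin-like growth factor (IGF) receptors and binding proteins were followed in mouse embryonic stem (ES) cells given a Prmt6 plasmid. The group held the ligand gene Igf1, the receptor genes Igf1r and Insr, and the binding protein genes Igfbp1 to Igfbp7. The members were chosen by name, with earlier results of these data known. Each was read by its probe set with the highest mean among those that the platform annotation assigns to that gene only. All 10 were found, of 19938 genes on the array. For 9 of them there was 1 such probe set, and Insr had 2.

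Both groups were HM1 cells, a mouse ES cell line, grown in medium with 15% fetal bovine serum and 1000 U/ml of LIF, the cytokine that keeps mouse ES cells undifferentiated. The 3 control arrays came from cells transfected with the empty pCAGIP.puro vector. The 3 overexpression arrays came from cells transfected with the same vector carrying mouse Prmt6, a nuclear arginine methyltransferase. Cells of both groups had been selected with puromycin at 1 µg/ml for 3 days and were harvested as populations. Whether the replicates were separate cultures is not stated in the labels, and the p-values below then measure only how far these arrays vary, which may be technical.

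IGF1 and IGF2 are secreted growth factors. Both signal through the IGF1 receptor, a tyrosine kinase closely related to the insulin receptor, which recruits IRS adaptor proteins and activates the PI3K-AKT pathway for growth and survival. Outside the cell, most IGF is held by the IGF-binding proteins, which prolong its life, limit its access to the receptor or, after cleavage by proteases, release it. In cultured ES cells, serum supplies IGFs in addition to those that the cells make.

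With the Prmt6 plasmid, 6 of the 10 members rose and 0 fell at an adjusted p under 0.05 (limma, Benjamini-Hochberg over all genes). Over all genes 7.05% passed upward, 3.25% downward and 10.3% in either direction. Because the members were chosen with earlier results known, the comparisons with all genes here describe the list and do not test it. With genes under the 30th percentile of gene means left out, a filter that 9 of the 10 members passed, the same 6 members were called and the shares of all genes were 13.1% upward and 7.09% downward. At an unadjusted limma p under 0.05, 1 member, Igfbp2, was lower, against 10.4% of all genes. The 6 were Igf1r and the binding protein genes Igfbp3, Igfbp4, Igfbp5, Igfbp6 and Igfbp7. Igfbp4 rose by the most, 4.95-fold. The median change of the 10 members was 0.70 on the log2 scale, and that of all genes was 0.00. A rise of at least 2-fold was called for 3 members, Igfbp4, Igfbp6 and Igfbp7, against 1.03% of all genes. The overexpression arrays lay wholly above the controls in 6 members and wholly below them in 2, and over all genes these shares were 17%, 12.7% and, in either direction, 29.7%. In bulk RNA, a change in the number of cells that make a transcript and a change in its amount per cell cannot be told apart.

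Of the members, 9 had an entry in the RefSeq promoter table, all but Insr. The start regions of 4 are shown because they let members that rose be set beside one that did not pass. Igfbp4, Igfbp7 and Igfbp5 rose, and Igfbp2, the neighbour of Igfbp5, did not pass. The lines give the 250 bases before the annotated start site (RefSeq, GRCm38.p6), 5′ to 3′ on the gene's strand. The table lists 2 start sites for Igfbp2, of which the upstream one was taken and the other not searched. Capitals mark matches, on either strand, to TATAAA (the core of a TATA box), GGGCGG (a GC box), TGANTCA (an AP-1 site) or GGAATG (the core of a TEAD site), and no matches overlap in these lines.
Igfbp4 (chr11:99040994-99041243, plus strand): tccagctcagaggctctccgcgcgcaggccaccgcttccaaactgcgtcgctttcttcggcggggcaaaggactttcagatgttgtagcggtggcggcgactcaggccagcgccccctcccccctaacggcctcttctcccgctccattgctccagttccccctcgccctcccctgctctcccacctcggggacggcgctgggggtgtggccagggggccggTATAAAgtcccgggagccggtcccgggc
Igfbp7 (chr5:77408046-77408295, minus strand): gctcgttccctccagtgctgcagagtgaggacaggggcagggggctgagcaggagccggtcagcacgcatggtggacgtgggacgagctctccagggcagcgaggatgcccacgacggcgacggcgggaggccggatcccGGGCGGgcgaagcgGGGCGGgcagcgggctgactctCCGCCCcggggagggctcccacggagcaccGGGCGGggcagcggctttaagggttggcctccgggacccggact
Igfbp5 (chr1:72874866-72875115, minus strand): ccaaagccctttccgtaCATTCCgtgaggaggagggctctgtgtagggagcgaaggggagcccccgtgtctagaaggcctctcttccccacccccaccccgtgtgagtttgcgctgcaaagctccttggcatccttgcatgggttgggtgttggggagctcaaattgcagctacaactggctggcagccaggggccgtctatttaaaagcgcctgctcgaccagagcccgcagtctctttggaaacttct
Igfbp2 (chr1:72824230-72824479, plus strand): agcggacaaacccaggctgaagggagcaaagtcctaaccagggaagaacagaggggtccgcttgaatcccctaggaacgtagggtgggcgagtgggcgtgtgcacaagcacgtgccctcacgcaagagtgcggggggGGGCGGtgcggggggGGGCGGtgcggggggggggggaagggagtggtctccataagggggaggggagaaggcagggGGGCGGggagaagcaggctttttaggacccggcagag

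The Igfbp4 window held 1 TATAAA match, whose first base lay 28 bases before the start site. The Igfbp7 window held 4 GC boxes and the Igfbp2 window 3, so that this motif occurred in a member that rose and in one that did not pass. The Igfbp5 window held 1 TEAD core, 233 bases before the start site. Among the 9 members with a window, TATAAA occurred in 2, GGGCGG in 3, TGANTCA in 1 and GGAATG in 1. Over all 32851 windows of the same length, the shares were 12.4%, 32.7%, 6.75% and 12.6%. No searched motif was shared by all members that rose. Their G and C content ran from 49.6% in Igfbp6 to 77.6% in Igf1r, with a median of 52.4% over all windows. A match is a description of these letters, and binding was not measured.

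For Prmt6 itself the control signals were 6.84, 6.58 and 7.12 (log2) and those with the plasmid 7.32, 7.40 and 7.33. The rise was 1.42-fold (0.50 ± 0.127, SE, limma adjusted p = 0.0406), a call that ended without 5 of the 6 arrays, each left out in turn (adjusted p from 0.0788 to 0.119), and with the replicate block (0.0615). Markers of ES cells, the labelled cell type, were high in every array, with list means from 10.62 to 10.65 in control and from 10.52 to 10.57 in overexpression (log2, 9 genes, of which 3 fell and 6 did not pass). Those that fell were Nanog (-0.34), Sox2 (-0.29) and Tdgf1 (-0.35). Markers of other cell types moved in the same arrays, and over all genes 7.05% were called higher and 3.25% lower. On the fibroblast list 5 of 9 genes rose, and its mean ran from 4.94 to 5.06 in control and from 5.37 to 5.50 in overexpression. Its collagen gene Col1a1 rose by 1.34 and Col1a2 by 0.98, while Lum, a fibroblast proteoglycan, stayed at 2.48 to 2.74 in all 6 arrays. Of smooth muscle markers 3 of 5 rose (list means from 6.11 to 6.26, then from 7.97 to 8.02). They were Acta2 (4.53, the largest estimated rise of all genes), Tagln (3.29) and Cnn1 (1.21). Myh11 and Des did not pass, at 0.01 and -0.04. Of trophoblast markers 3 of 7 rose (5.74 to 5.79, then 6.28 to 6.37), namely Krt7 (2.34), Plac1 (0.80) and Eomes (0.55). Gata3 (0.52), Cdx2 (0.26), Elf5 (-0.25) and Tfap2c (-0.22) did not pass. Of endoderm markers 2 of 8 rose (5.08 to 5.10, then 5.16 to 5.35) and of neural markers 2 of 4 (6.77 to 6.85, then 7.07 to 7.12). Of 2 blood markers 0 passed by limma, and 1 had an unadjusted p under 0.05 (list means from 4.88 to 5.00, then from 4.74 to 4.81). The part of other cell types in the changes of the IGF genes was not tested.

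The ligand gene Igf1 had log2 signals of 5.22, 5.19 and 5.16 in control and of 5.02, 5.11 and 5.09 in overexpression. All 3 overexpression arrays lay just below the controls. The difference of -0.12 ± 0.0683 (SE, 95% interval from -0.27 to 0.04) did not pass (limma adjusted p = 0.347). Igf1 is the main circulating IGF of the adult, made largely by liver. The gene overlaps the antisense gene Igf1os in the RefSeq annotation.

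The receptor gene Igf1r was read at 6.74, 6.88 and 6.78 in control and at 7.65, 7.63 and 7.49 in overexpression. Every overexpression array lay above every control array. The rise was 1.73-fold (0.79 ± 0.0787 on the log2 scale, SE, 95% interval from 0.61 to 0.97, limma adjusted p = 0.000417). Its receptor carries the growth signal of both IGFs.

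The insulin receptor gene Insr was read at 6.83, 6.76 and 7.12 in control and at 7.03, 6.81 and 6.94 in overexpression, and the groups overlapped. Its change was 0.02 ± 0.109 (95% interval from -0.23 to 0.27, limma adjusted p = 0.929). A second probe set of Insr gave 6.62, 6.53 and 6.68, then 6.53, 6.65 and 6.41, a change of -0.08 ± 0.0886 that did not pass either. Between the receptor genes, the log2 difference Igf1r minus Insr was -0.10 ± 0.23 in control and 0.66 ± 0.14 in overexpression (SD, n = 3 each). The change in that difference was 0.77, with an exact two-sided permutation p = 0.1, the smallest that 3 arrays against 3 can give. It was 1 of 3 pairs compared in this way, and the adjusted p was 0.1 for each.

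**Figure D1:**
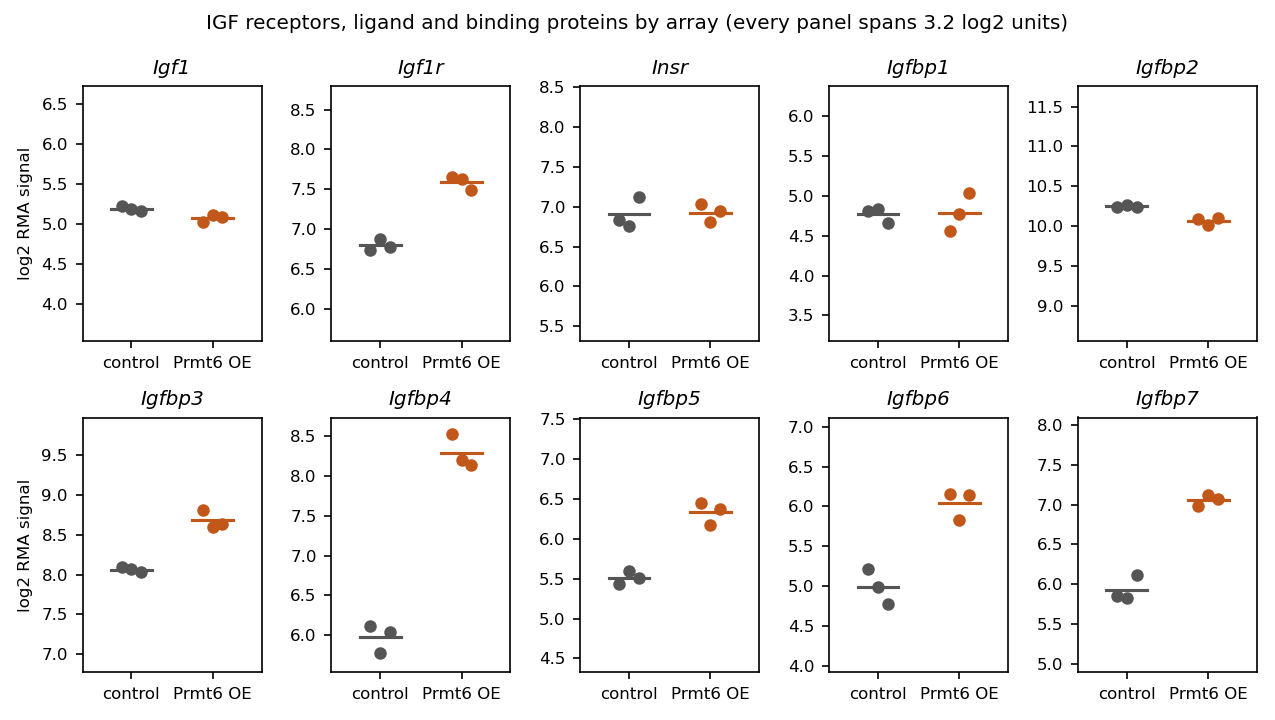
Log2 RMA signal of the 10 members in each array, with control in grey and Prmt6 overexpression (OE) in orange; horizontal lines are group means and every panel spans the same log2 range. The 3 overexpression points lie above the 3 control points for Igf1r, Igfbp3, Igfbp4, Igfbp5, Igfbp6 and Igfbp7, below them for Igf1 and Igfbp2, and overlap with them for Insr and Igfbp1.

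Of the 7 binding protein genes, 5 rose and 2 did not pass, and over all genes 7.05% rose. Igfbp4 encodes a binding protein that inhibits IGF action and is released from IGF by cleavage with the protease PAPP-A. It was read at 6.12, 5.78 and 6.04 in control and at 8.52, 8.20 and 8.14 in overexpression. The lowest overexpression array stood over 2 log2 units above the highest control array. The rise was 2.31 ± 0.126 (SE, 95% interval from 2.02 to 2.59, limma adjusted p = 1.2e-05), and 16 genes of the whole array had a larger estimated rise.

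Igfbp7 encodes a low-affinity IGF-binding protein found in basement membranes and around vessels. Its signals were 5.85, 5.83 and 6.11 in control and 6.98, 7.12 and 7.07 in overexpression. These groups did not overlap, and the rise was 2.18-fold (1.13 ± 0.094, SE, limma adjusted p = 0.000151). The gene overlaps Polr2b in the RefSeq annotation.

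Igfbp6 encodes the binding protein that prefers IGF2 over IGF1. It was read at 5.21, 4.99 and 4.77 in control and at 6.16, 5.83 and 6.14 in overexpression. The control arrays were the most spread of all members (SD 0.22), and the groups still lay apart. Control replicate 3, at 4.77, lay under the 30th percentile of gene means (4.85). The rise was 2.08-fold (1.05 ± 0.131, SE, limma adjusted p = 0.00151).

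Igfbp5, which binds extracellular matrix as well as IGF, was read at 5.43, 5.60 and 5.51 in control and at 6.45, 6.18 and 6.37 in overexpression. It rose 1.77-fold (0.82 ± 0.0915, SE, limma adjusted p = 0.000803). Igfbp3 encodes the main IGF carrier of blood plasma, where it forms a complex with the acid-labile subunit. Its signals were 8.09, 8.07 and 8.03 in control and 8.81, 8.60 and 8.63 in overexpression, again without overlap. It had the smallest called rise of the family, 1.53-fold (0.62 ± 0.0797, SE, limma adjusted p = 0.00179).

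Igfbp2, a binding protein made by many embryonic tissues, was read at 10.24, 10.27 and 10.24 in control and at 10.09, 10.01 and 10.10 in overexpression. The overexpression arrays lay below the controls. The difference was -0.18 ± 0.0678 (SE, 95% interval from -0.34 to -0.03), and it did not pass (limma adjusted p = 0.135). It passed downward under quantile normalization (-0.25, adjusted p = 0.0489) and with a trended and robust variance prior (-0.18, adjusted p = 0.0231). Igfbp1, a liver and decidua binding protein that insulin represses, was read at 4.81, 4.84 and 4.66 in control and at 4.56, 4.77 and 5.04 in overexpression. Its groups overlapped (0.02 ± 0.122, 95% interval from -0.26 to 0.30, limma adjusted p = 0.948). Both group means (4.77 and 4.79) lay under the 30th percentile of gene means (4.85), although overexpression replicate 3 lay above it. Igfbp1 was the member that a filter on dim genes would leave out, and 9 of 10 members passed that filter.

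**Figure D2:**
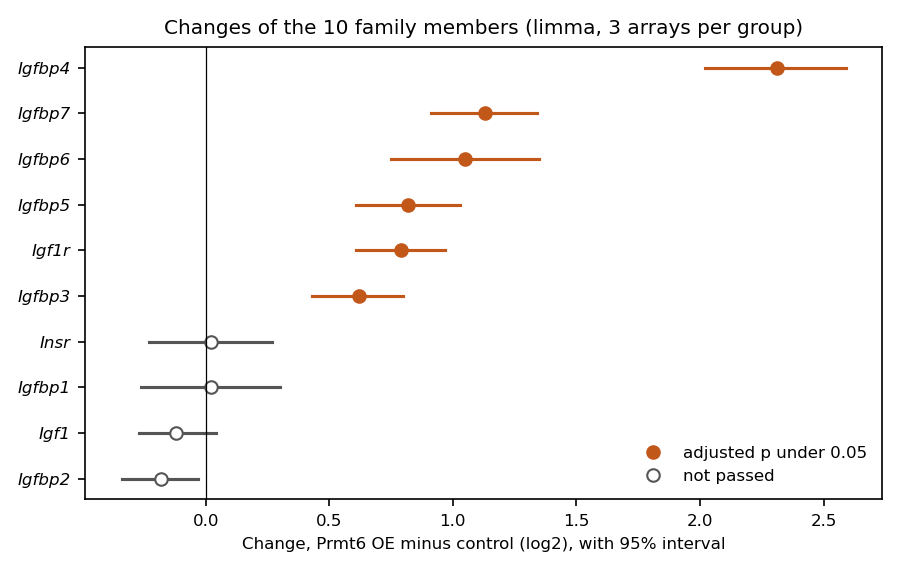
Change of each member in log2 units, overexpression minus control, with its 95% interval from limma (3 arrays per group); filled orange points passed an adjusted p of 0.05 and open grey points did not. The 6 called members lie between 0.62 and 2.31, and the other members between -0.18 and 0.02.

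Among the 6 members that rose, overexpression replicate 1 had the highest signal of its group in 5 and the lowest in 1, Igfbp7. Even so, all 6 calls held when any 1 array was left out, under every other alternative tried and with the replicate block. Across these settings the change of Igfbp4 lay between 2.19 and 2.38, that of Igfbp7 between 1.08 and 1.22 and that of Igfbp6 between 0.94 and 1.16. The changes of Igfbp5 lay between 0.76 and 0.90, those of Igf1r between 0.76 and 0.84 and those of Igfbp3 between 0.55 and 0.66.

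Igfbp2 and Igfbp5 lie next to each other on chromosome 1, and Igfbp1 and Igfbp3 on chromosome 11, with 0 annotated genes between them in each case (RefSeq, GRCm38.p6). Igfbp5 and Igfbp3 rose, while their neighbours did not pass, Igfbp2 with all overexpression arrays below control and Igfbp1 with overlapping groups. The log2 difference Igfbp2 minus Igfbp5 was 4.81, 4.67 and 4.73 with the empty vector and 3.64, 3.83 and 3.73 with the Prmt6 plasmid. Its change was -1.0 (exact two-sided permutation p = 0.1, the smallest possible here; adjusted over 3 pairs 0.1). Igfbp1 minus Igfbp3 went from -3.28, -3.23 and -3.37 to -4.25, -3.83 and -3.59, a change of -0.60 with an exact permutation p of 0.1. Because Igfbp1 was dim in both groups and not shown to be above background, that difference describes little beyond the rise of Igfbp3. In both pairs the differences of the groups did not overlap, although no design of this size can reach 0.05 in that test.

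Around the family, other genes of the pathway, also listed with earlier results of these data known, were counted by role. Of 59 listed genes 55 were measured. Rises were called for 10 of them and falls for 3, and 42 did not pass. Their median change was 0.02. That is 10 of 55 upward against 7.05% of all genes, and 3 of 55 downward against 3.25%. The filter on dim genes kept 50 of the 55. Of these 50, 13 were then called higher, against 13.1% of all genes kept, and 6 lower, against 7.09%. The filter used means over all 6 arrays, so it was not blind to group. Pappa, among those called higher, passed it through its overexpression mean (5.11), as its control mean (4.76) lay under the cut (4.85). Whether the list or any of its role groups differs from all genes was not tested. With no filter, the list had 6 rises and 1 fall without control replicate 1, and 6 rises without control replicate 2.

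Igf2, the fetal IGF and an imprinted gene, was the ligand that rose. It was read at 7.42, 7.49 and 7.53 in control and at 9.78, 9.72 and 9.60 in overexpression. The groups were far apart, with a rise of 4.66-fold (2.22 ± 0.0774, SE, limma adjusted p = 1.49e-06). The gene overlaps Mir483 and Igf2os in the annotation. Ins2, an insulin gene, did not pass (0.10 ± 0.0945). Igf2r, the receptor that carries IGF2 to lysosomes for degradation, was read at 8.36, 8.47 and 8.51, then 8.88, 8.80 and 8.74. It rose 1.28-fold (0.36 ± 0.0768, limma adjusted p = 0.0209), a call lost when control replicate 1 (0.0947), control replicate 2 (0.0649) or overexpression replicate 2 (0.064) was left out and with the replicate block (0.0705). Insrr, the orphan relative of the insulin receptor, was at -0.13 ± 0.0958 without passing.

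Of the acid-labile subunit, the binding protein proteases and their inhibitors, 1 of 6 genes rose and 1 fell. The shares over all genes were 7.05% and 3.25%. Pappa, which encodes the protease PAPP-A that cleaves IGFBP4, was read at 4.86, 4.66 and 4.77, then 5.24, 4.99 and 5.11. It rose 1.27-fold (0.35 ± 0.0908, limma adjusted p = 0.045), a call that ended without any 1 array other than overexpression replicate 2 (adjusted p from 0.0752 to 0.154). The control mean of Pappa, 4.76, lay under the 30th percentile of gene means (4.85), and was not shown to be above background. Stc2, whose secreted product inhibits PAPP-A, was read at 7.13, 7.18 and 7.03, then 6.79, 6.84 and 6.70. It fell by 0.34 (SE 0.0767, limma adjusted p = 0.0277), and that call ended without any 1 array (0.0502 to 0.109), with the replicate block (0.0568) and with arrays centred on medians (0.0529). Igfals, the gene of the acid-labile subunit, was at 0.07 ± 0.0968 and Htra1, a secreted protease, at -0.06 ± 0.0723, neither passing.

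Among the relatives that share the IGF-binding protein domain, 3 of 10 rose, against 7.05% of all genes. Crim1, a transmembrane protein that binds growth factors of the BMP family, was read at 6.94, 6.96 and 7.01, then 9.08, 8.86 and 8.90 (1.98 ± 0.0809, limma adjusted p = 2.92e-06). Ccn4, a matricellular protein and target of Wnt signalling, was read at 5.26, 5.12 and 5.28, then 7.30, 7.02 and 7.14 (1.93 ± 0.0922, adjusted p = 6.98e-06). Ccn1, a matricellular protein that binds integrins, was read at 8.45, 8.63 and 8.59, then 9.87, 9.85 and 9.99 (1.35 ± 0.0806, adjusted p = 2.2e-05). These rises of Crim1 and Ccn4 were larger than those of every member but Igfbp4. Ccn2, the close relative of Ccn1, did not pass (0.23 ± 0.07, adjusted p = 0.0792), nor did Igfbpl1 (0.06 ± 0.123).

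Downstream of the receptors, 1 of 11 adaptors rose, near the 7.05% of all genes that did. Irs1, which docks PI3K to the activated receptor, was read at 5.14, 5.72 and 5.45, then 7.08, 6.81 and 7.02. It rose 1.53 ± 0.144 on the log2 scale (limma adjusted p = 0.000293). A second, dimmer Irs1 probe set moved by 0.32 ± 0.15 without passing (adjusted p = 0.303 over 35556 probe sets), and the mean of both rose by 0.93. Irs2, the other widely expressed IRS gene, was at 0.28 ± 0.0798 (adjusted p = 0.0633), and Grb10, an inhibitor of both receptors, at 0.16 ± 0.0694 (0.192).

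In the PI3K-AKT-mTOR branch, with 18 genes measured, 2 rises and 1 fall were called. Such counts are near the shares of all genes, 7.05% upward and 3.25% downward. Akt1, the kinase at its centre, was read at 8.10, 8.17 and 8.12, then 8.84, 8.78 and 8.83 (0.69 ± 0.0673, limma adjusted p = 0.000386). Inpp5d, the lipid phosphatase SHIP1 that lowers the product of PI3K, was read at 8.14, 8.06 and 8.19, then 7.24, 7.14 and 7.17 (-0.95 ± 0.0726, adjusted p = 9.31e-05). So the kinase gene rose and this phosphatase gene fell, with no overlap of arrays in either. Akt2, at 0.29 ± 0.0671 (adjusted p = 0.0308), lost its call without any 1 array other than overexpression replicate 1 (0.0508 to 0.125), with the replicate block (0.0952), under quantile normalization (0.0531) and when both its probe sets were averaged (0.117). Mtor was at -0.21 ± 0.0719 and Pik3r1, a regulatory subunit of PI3K, at -0.23 ± 0.0767, neither passing (adjusted p = 0.106 and 0.107). Foxo3, a forkhead factor that AKT keeps out of the nucleus, fell by 0.39 (SE 0.0695, limma adjusted p = 0.00906) from 8.47, 8.40 and 8.40 to 8.04, 7.98 and 8.08. The Foxo3 call ended without control replicate 1 (0.0516), and Foxo1 was at 0.28 ± 0.0876 (0.0886). Igf2bp3, an RNA-binding protein of the IGF2 transcript, rose by 0.33 ± 0.0753 (adjusted p = 0.0278) and Igf2bp1 was at -0.01 ± 0.0729. The Igf2bp3 call held without overexpression replicate 2 and ended without any other array (0.0546 to 0.104) and with the replicate block (0.0632).

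**Figure D3:**
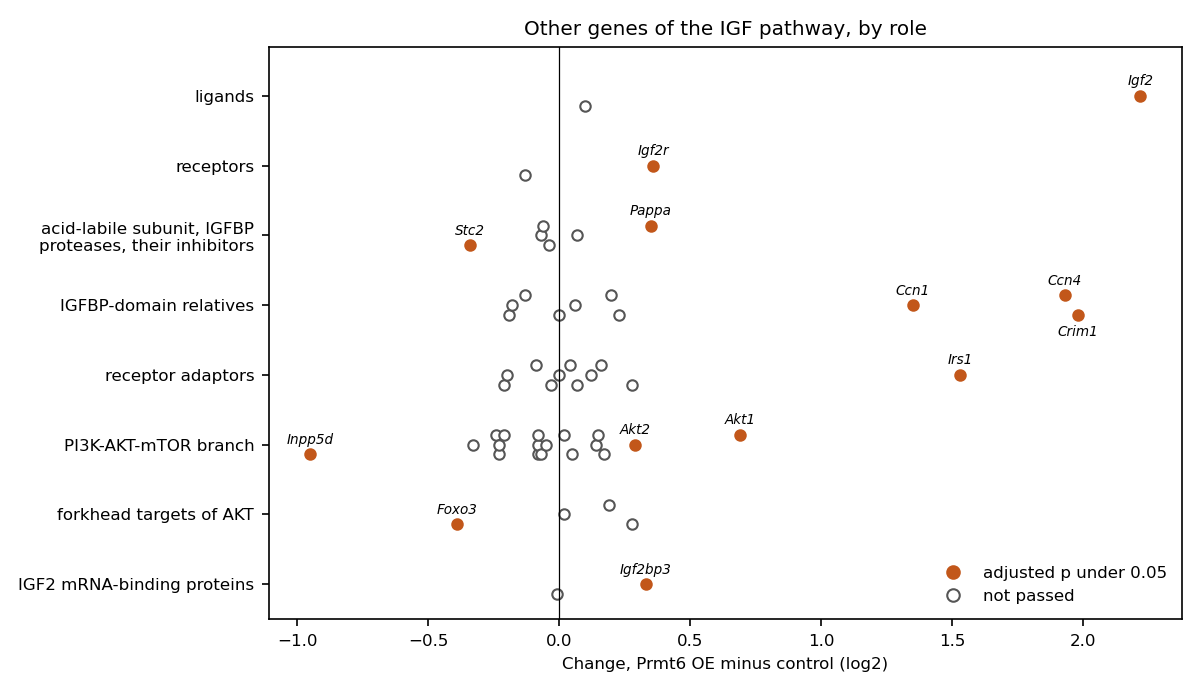
Change in log2 units, overexpression minus control, of the 55 measured pathway genes in 8 role groups; filled orange points with names passed an adjusted p of 0.05 (limma) and open grey points did not. Most points lie near 0, with Igf2, Crim1, Ccn4, Irs1 and Ccn1 beyond 1 on the right and Inpp5d at -0.95 on the left.

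The genes whose pattern over the 6 arrays was nearest to that of Igfbp4 were found from the root mean square difference of log2 signals, each gene centred on its control mean. Among 19937 genes the nearest was Igf2 (0.155), followed by the keratin gene Krt7 (0.168) and the annexin gene Anxa3 (0.178). Krt7 was read at 6.15, 5.76 and 5.84, then 8.24, 8.16 and 8.38, and Anxa3 at 7.31, 7.41 and 7.55, then 9.72, 9.69 and 9.74. They rose by 2.34 ± 0.113 and 2.29 ± 0.0811, close to the 2.31 of Igfbp4. Because the measure is dominated by the difference between the groups, it lists genes with a rise of like size.

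**Figure D4:**
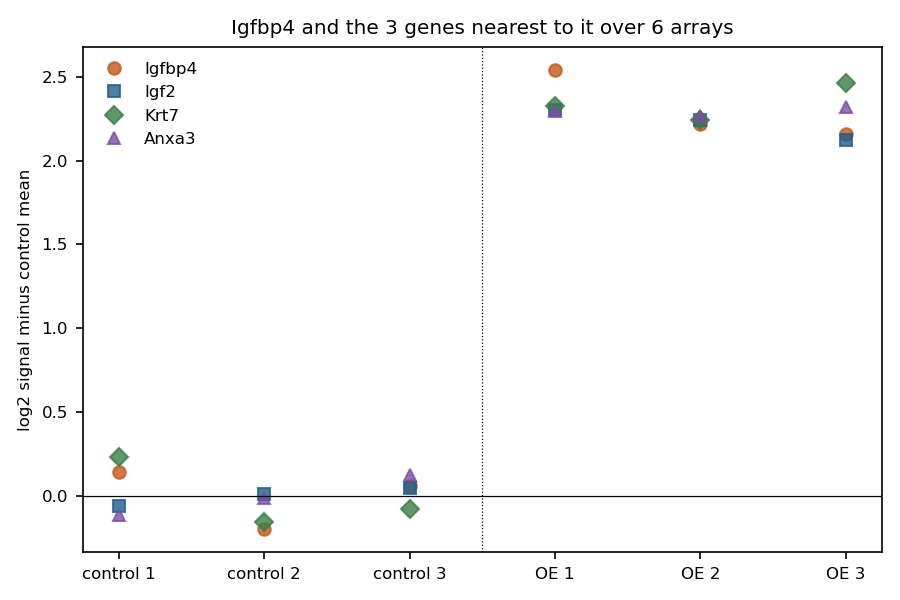
Log2 signal minus the gene's own control mean in each of the 6 arrays, for Igfbp4 and the 3 genes nearest to it. Control arrays lie around 0 for every gene and overexpression arrays lie more than 2 log2 units higher.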

How the data were processed

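The deposited values are log2 signals of 1 Affymetrix array per sample, made by the authors with robust multi-array average (RMA; no version named), per the submitters' processing notes. RMA equalizes the arrays, which removes most of any shift that nearly all genes share. Array medians of the 35556 probe sets ran from 5.54 to 5.62. No detection calls were used, and precision is limited by the number of arrays. Per the platform annotation of 2016, 21789 probe sets name 1 gene, 1621 several and 12146 none. Of the first, 21698 were matched by gene identifier to RefSeq (GRCm38.p6). The highest-mean probe set stood for each of 19938 genes.

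The test was limma's moderated test (version 3.58.1, R 4.3.3), two-sided, with no covariate or filter and Benjamini-Hochberg adjustment over all genes at 0.05. Changes are overexpression minus control. Differences between members were tested by exact permutation over the 20 splits of the arrays. On simulated data over 19938 genes, 4.4% of genes changed by 0.3, 38.4% by 0.5, 86.8% by 1 and 99.2% by 2 (log2) were recovered. Of the calls, 3.02% were false. The simulation used independent noise and fewer changed genes than were called here, so its shares do not give the power on these data. Alternatives tried were leaving out each array, a replicate block, quantile normalization, median centring, a filter at the 30th percentile, averaged probe sets and a trended, robust variance prior. The members and lists were chosen with earlier results of these data known. Named were all members, Prmt6, Igf2, Igf2r, up to 3 called genes of each role group with the largest change, or the one with the smallest p, and the 3 genes most like Igfbp4 (0 predicted genes skipped). Other list and marker genes were named after their values were seen. Figures used matplotlib 3.10.9.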

Additional observations from a re-analysis of the deposited data

How the results depend on the processing

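The 6 called rises in the family held under every alternative, and 0 members were called lower except under quantile normalization and with the trended and robust variance prior, where 1 was, Igfbp2. Not called in any setting, Insr changed sign without control replicate 1 (-0.01), control replicate 2 (-0.05) or overexpression replicate 1 (-0.03) and with its probe sets averaged (-0.03), and Igfbp1 without control replicate 3 (-0.04) or overexpression replicate 3 (-0.10). Leaving out 1 array moved Insr between -0.05 and 0.13 and Igfbp1 between -0.10 and 0.14. Of the pathway list, 6 genes were called lower with dim genes left out, 6 under quantile normalization and 7 with the trended and robust prior. Leaving out 1 array gave 6 to 8 rises and 1 to 3 falls on that list. Over all genes, leaving out 1 array gave 862 to 1232 rises and 280 to 763 falls, against 1405 and 647. With dim genes left out there were 1832 rises and 990 falls among 13961 genes. Falls numbered 383 with the replicate block and 1115 with the trended and robust prior. Median centring gave 1838 rises and 447 falls (80.4% rises, against 68.5%) and moved the median change of all genes by 0.05. The cause of these differences was not tested. Same-numbered arrays did not deviate together (correlations of -0.02, -0.02 and -0.12 across genes). After normalization and with 3 arrays per group, these correlations cannot show whether the numbers pair the samples. The labels do not state a pairing. The replicate block ended no call of a member.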
